A study of Mus musculus with 20 samples.

Results

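The 10 genes described here encode proteins that coat or enlarge lipid droplets, enzymes and an inhibitor that govern the hydrolysis of stored triglyceride, and a fatty acid transporter. They were taken by symbol (Plin2, Plin4, Plin5, Cidea, Cideb, Cidec, Pnpla2, G0s2, Cd36 and Mgll). All 10 were among the 29915 genes of the count table, and all 10 were among the 13894 genes that passed the filter on low counts. Cidea passed narrowly, since 15 of the 20 libraries held fewer than 10 of its counts. Every library with 10 or more was a refed one, so Cidea entered the tests only through refed livers. Messenger RNA had been sequenced from the livers of male mice. In the mutants hepatocytes expressed the K556R form of the transcription factor Prox1, which lacks a SUMO attachment site, and the other mice were labelled wild type. The 4 groups, of 5 libraries each, were K556R refed, K556R fasted, wild type refed and wild type fasted. The knock-in was conditional and specific to hepatocytes, Cre recombination was induced at 8 weeks of age, and livers were collected 11 weeks later at Zeitgeber time 15 to 17 from mice on chow. The titles name the genotypes Ctrl and Cre, so an effect of Cre itself and one of K556R cannot be told apart. The sources used here do not say how Cre was delivered or how long the mice were fasted or refed.

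Liver cells keep surplus fatty acids as triglyceride in droplets whose surface is covered by perilipins (Plin genes) and by proteins of the CIDE family. Adipose triglyceride lipase, the product of Pnpla2, removes the first fatty acid from triglyceride, and monoglyceride lipase, the product of Mgll, the last. G0S2 binds adipose triglyceride lipase and blocks it, and perilipin 5 restrains it at the droplet surface while holding droplets close to mitochondria. In fasting the liver takes up fatty acids released by adipose tissue, and several of these genes are known targets of PPAR alpha, the nuclear receptor that drives fatty acid oxidation in fasted liver.

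Total counts per library were 33746054 to 50647297. The libraries came from 2 batches named in the labels, 14 in batch 1 and 6 in batch 2, and batch 2 supplied 3 of the K556R refed libraries but 1 of each other group. Libraries are called by replicate and batch, such as 1_b1. K556R refed 1_b1 and K556R fasted 1_b1 stood apart on the second principal component (−60.6 and −41.8, with the other 18 libraries between −8.71 and 11.2). They also had the highest summed proliferation genes of their groups (32.5 and 13.6 CPM, against at most 7.01 and 5.89 CPM in the other libraries of each group). K556R refed 1_b1 had the lowest level of its group in 8 of the 10 genes. On the first component, which parted refed (27.9 to 40.2) from fasted livers, K556R fasted 1_b2 and wild type fasted 1_b2 lay at −21.8 and −15.1 and the other fasted libraries between −47.9 and −33.1. Summed over its 7 markers, the hepatocyte list held 102889 to 148235 CPM in all libraries, the macrophage list 41.2 to 237 CPM, the sinusoidal endothelial list 87.1 to 148 CPM, the stellate list 124 to 261 CPM and the lymphocyte list (6 of its 7 genes found) 0.450 to 4.60 CPM, highest in the same 2 libraries (4.60 in K556R refed 1_b1 and 3.81 in K556R fasted 1_b1). Repeats are numbered in the labels but not tied to animals, and the p-values here refer to the spread among libraries, which may be technical. The level of Prox1, the mutated gene, which here does not tell mutant from wild-type transcript, averaged 75.5 ± 12.1 CPM in K556R refed and 110.1 ± 15.7 CPM in wild-type refed livers, and 105 ± 15.7 CPM in K556R fasted and 185 ± 38.5 CPM in wild-type fasted livers. It was lower in K556R livers when averaged over feeding (log2 difference −0.72, SE 0.10, edgeR adjusted p = 0.00563). That call passed in 30 of 32 other settings and was lost in batch 1 alone (−0.71, adjusted p = 0.326) and with a replicate block (−0.70, adjusted p = 0.177). Pck1, a gluconeogenic gene, averaged 1217 ± 752 CPM in K556R refed and 6277 ± 944 CPM in K556R fasted livers, and 987 ± 277 CPM in wild-type refed and 6783 ± 1127 CPM in wild-type fasted livers (SD, n = 5 each). Srebf1, which encodes a lipogenic transcription factor, ran the other way, and neither gene overlapped between refed and fasted livers of a genotype.

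The promoters of 3 genes that were lower after refeeding in K556R and in wild-type livers (Plin2, Plin4 and Pnpla2) are shown as the 250 bases before the RefSeq start site, on GRCm38.p6 and in the direction of transcription. The Plin2 window is chr4:86670060-86670309 on the minus strand, the Plin4 window chr17:56109783-56110032 on the minus strand and the Pnpla2 window chr7:141454938-141455187 on the plus strand. Capitals mark a match, on either strand and with at most 2 mismatches, to AGGTCA given as a direct repeat with 1 base of any kind between the copies (DR1), the form bound by PPAR with RXR.
Plin2: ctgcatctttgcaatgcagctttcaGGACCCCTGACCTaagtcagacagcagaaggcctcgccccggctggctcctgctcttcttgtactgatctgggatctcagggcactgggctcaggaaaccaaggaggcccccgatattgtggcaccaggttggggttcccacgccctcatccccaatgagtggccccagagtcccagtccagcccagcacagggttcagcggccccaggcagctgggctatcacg
Plin4: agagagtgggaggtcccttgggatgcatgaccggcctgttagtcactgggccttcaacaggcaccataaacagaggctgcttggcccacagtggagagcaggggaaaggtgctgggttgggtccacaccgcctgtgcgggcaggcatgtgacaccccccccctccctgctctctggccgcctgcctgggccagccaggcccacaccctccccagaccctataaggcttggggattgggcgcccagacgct
Pnpla2: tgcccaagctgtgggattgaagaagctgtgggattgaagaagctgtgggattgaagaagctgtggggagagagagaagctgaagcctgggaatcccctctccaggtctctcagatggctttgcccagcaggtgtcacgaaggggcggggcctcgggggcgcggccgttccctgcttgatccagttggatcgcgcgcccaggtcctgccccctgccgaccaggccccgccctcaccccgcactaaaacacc
A window was used for 9 of the 10 genes (all but Cidea). Plin5, Cidec and Mgll had 2 windows each, and only the window nearest the annotated gene start is reported. Of the 9 windows used, the direct repeat was matched in 2. These were Plin2 (GGACCCCTGACCT, read on the opposite strand, beginning 225 bases before the start) and Cd36 (TGGCCTCTGACTT, opposite strand, 63 bases before the start). The Cd36 window, chr5:17835897-17836146 on the minus strand, lies within the gene span given below (chr5:17781690-17888801). It is not at the upstream end of that span. CACGTG, the E-box, was matched among the windows used in that of Mgll alone, 44 bases before the start. Among all 32851 windows of this length, 3.24% held the direct repeat and 6.02% the E-box. These matches describe letters and not binding.

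Levels of different genes were compared per kilobase of exon. In wild-type fasted livers G0s2 was highest (188 ± 34.6 CPM per kb, mean ± SD, n = 5), followed by Plin2 (155 ± 42.1) and Cideb (121 ± 5.33), whose ranges overlapped one with the next. Mgll (62.4 ± 5.02 CPM per kb), Plin5 (59.2 ± 20.9), Pnpla2 (39.1 ± 4.54), Plin4 (24.9 ± 10.4), Cd36 (7.85 ± 3.63) and Cidec (4.50 ± 0.589) came next in that order, each overlapping its neighbour. Cidea was last, at 0.0821 ± 0.0528 CPM per kb, below the range of Cidec. In wild-type refed livers Cideb came first (133 ± 8.31 CPM per kb), its range overlapping that of Plin2 (111 ± 16.3), and Plin2 overlapped G0s2 (100.2 ± 36.6). Plin4 stood eighth there at 2.26 ± 0.653 CPM per kb, next to Cidec at 2.22 ± 0.827, and their ranges overlapped. The K556R groups had the same leading 3 genes in each feeding state and Cidea in the last place.

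**Figure D1:**
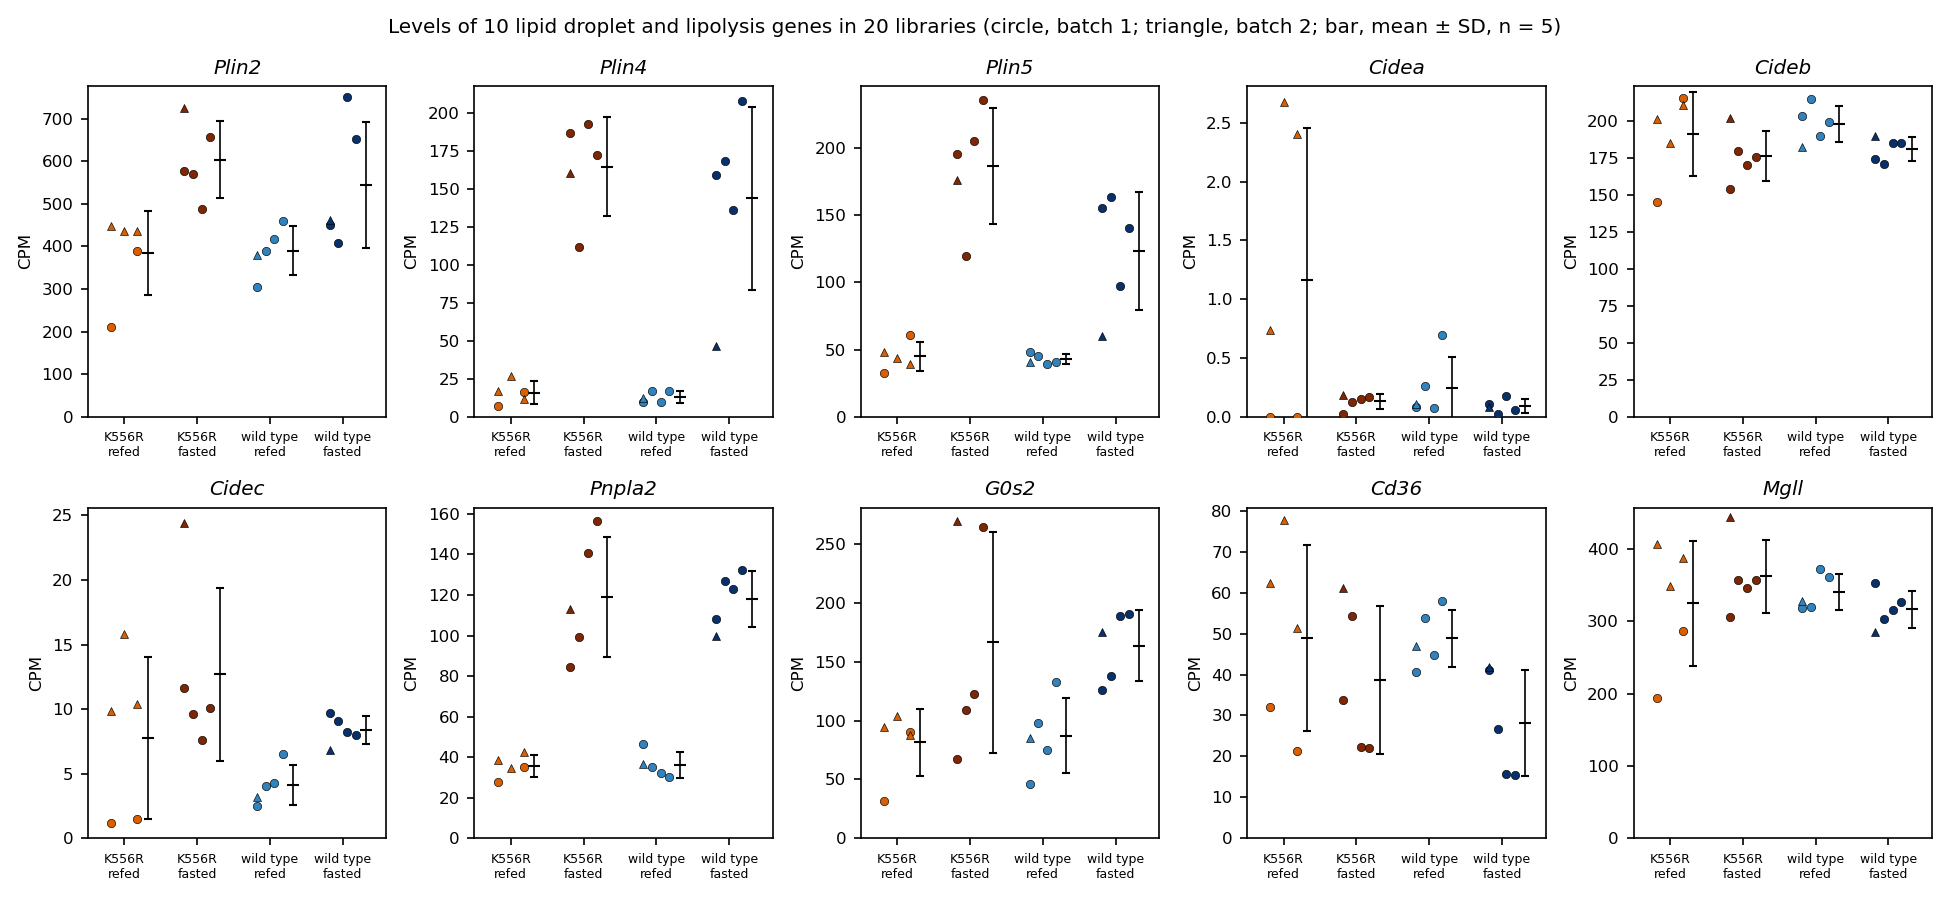
Level of each of the 10 genes (CPM, y axis from 0) in each library of the 4 groups (x axis), with circles for batch 1, triangles for batch 2 and bars for the mean ± SD of 5 libraries; SD bars that reach below 0 are cut at the axis. Plin4, Plin5 and Pnpla2 separate refed from fasted livers in both genotypes, while Cideb and Mgll lie at similar heights in all groups.

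Transcripts of 3 perilipins and of adipose triglyceride lipase were lower after refeeding in both genotypes. In K556R livers 6 of the 10 genes were lower after refeeding (Plin2, Plin4, Plin5, Cidec, Pnpla2 and G0s2) and 0 higher, at an edgeR quasi-likelihood adjusted p under 0.05, where 20.3% of all tested genes were lower and 19.6% higher. In wild-type livers 4 were lower (Plin2, Plin4, Plin5 and Pnpla2) and 1 higher (Cd36), where 24.2% of all genes were lower and 20.9% higher. The median log2 change of the 10 genes was −0.97 in K556R and −0.69 in wild type, beside 0.01 and −0.01 over all tested genes. At an unadjusted p under 0.05 6 members passed in K556R and 7 in wild type, beside 47.3% and 51.2% of all genes, and DESeq2 and limma also gave 0 higher in K556R. DESeq2 gave the same 6 lower there, and limma 4, without Cidec and G0s2. In wild type DESeq2 and limma each gave 5 lower and 1 higher (Cd36). DESeq2 added G0s2 to the lower genes of wild type, and limma added Cidec and G0s2 and lost Plin2. In which genotype Cidec and G0s2 were called therefore depended on the tool. In bulk liver fewer cells of a type and less RNA per cell cannot be told apart. Under upper-quartile scaling 3645 genes were higher and 2747 lower in wild type, in place of 2904 and 3359. That scaling ended the wild-type call of Plin2 (adjusted p = 0.0725), and it added Cideb to the higher genes there (adjusted p = 0.0421).

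**Figure D2:**
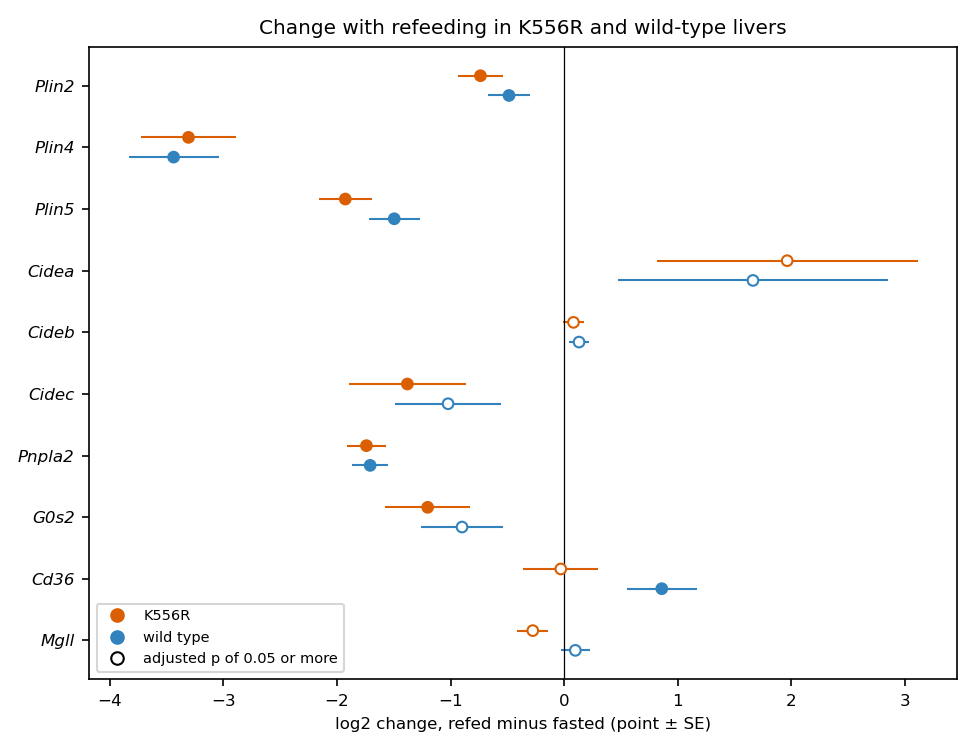
Log2 change with refeeding (refed minus fasted, x axis; point ± SE) of each gene in K556R livers (orange) and wild-type livers (blue), with filled points for an adjusted p under 0.05. Plin4 lies farthest to the left in both genotypes (−3.31 and −3.44), and Cd36 is filled to the right of 0 in wild type alone.

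Plin4, Plin5 and Plin2 fell with refeeding to different extents. Plin4 (chr17:56100591-56109803, minus strand, GRCm38), which encodes a perilipin best known from adipocytes and muscle, had 6.83, 16.4, 17.3, 27.1 and 11.7 CPM in K556R refed livers, against 187, 112, 192, 173 and 160.4 CPM in K556R fasted livers. In wild type it had 9.60, 17.3, 9.59, 16.8 and 12.1 CPM in refed livers, against 159, 169, 136, 208 and 46.8 CPM in fasted livers. No refed library overlapped a fasted one of the same genotype, a separation that 14.1% of all genes showed downward in K556R and 18.7% in wild type. The change was −3.31 in log2 (SE 0.42, 0.101-fold, edgeR adjusted p = 1.00e-05) in K556R and −3.44 (SE 0.40, 0.0922-fold, adjusted p = 2.73e-06) in wild type. Wild type fasted 1_b2 had the lowest fasted level of Plin4, and batch 2 has 1 library in 3 of the 4 groups. In K556R the change was −3.84 in batch 1 alone (adjusted p = 3.86e-05) and −3.09 in batch 2 alone (adjusted p = 0.0719). In wild type it was −1.95 in batch 2 alone (adjusted p = 0.313) and −3.65 in batch 1 alone.

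Plin5 lies 1797 bp from Plin4 on chromosome 17 (chr17:56111601-56117596, minus strand). It had 32.4, 61.2, 48.2, 43.8 and 39.6 CPM in K556R refed livers, against 196, 119.5, 205, 236 and 176 CPM in K556R fasted livers. Wild-type refed livers held 48.3, 45.5, 39.4, 40.7 and 40.5 CPM, against 156, 164, 97.0, 141 and 60.4 CPM in wild-type fasted livers. The groups were again separate in both genotypes, with the refed wild-type libraries packed tightly and the fasted ones spread wide. Plin5 changed by −1.93 in log2 in K556R (SE 0.24, adjusted p = 5.43e-06) and by −1.50 in wild type (SE 0.22, adjusted p = 2.97e-05). In batch 1 alone the changes were −2.01 in K556R and −1.68 in wild type, and in batch 2 alone −2.0 and −0.57. The wild-type value in batch 2 rested on the pair of libraries that included fasted 1_b2, at 60.4 CPM the lowest fasted library.

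Plin2 (chr4:86648386-86670060, minus strand), the main perilipin of hepatocyte droplets, changed by a smaller fold. Its levels were 211, 389, 449, 436 and 437 CPM in K556R refed livers, against 576, 570.3, 487, 657 and 724 CPM in K556R fasted livers, without overlap. In wild type the levels were 304, 389, 418, 459 and 380.4 CPM in refed livers, against 451, 409, 749.5, 652 and 462 CPM in fasted livers, and here the groups overlapped. The log2 change was −0.74 in K556R (SE 0.20, adjusted p = 0.00664) and −0.49 in wild type (SE 0.19, adjusted p = 0.0424). The wild-type call lay close to the threshold and was lost under 16 of 33 other settings, among them batch 1 alone and batch 2 alone (log2 change −0.52 and −0.27, adjusted p = 0.0691 and 0.205). Leaving out any 1 of 9 libraries ended it: wild type refed 1_b1, 2_b1, 3_b1 or 1_b2, wild type fasted 3_b1 or 4_b1, 1 K556R refed library (2_b1), or K556R fasted 1_b1 or 2_b1. The K556R call passed in each of the 33 settings, with −0.93 in batch 1 alone and −0.71 in batch 2 alone.

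Among the CIDE genes, Cidec was lower after refeeding in K556R, its wild-type change did not pass, and Cideb and Cidea passed in neither genotype. Cidec (chr6:113424634-113435760, minus strand), whose protein fuses small droplets into large ones, had 1.19, 1.52, 9.85, 15.8 and 10.4 CPM in K556R refed livers, the first 2 from batch 1 and the other 3 from batch 2. K556R fasted livers had 11.6, 9.62, 7.64, 10.1 and 24.4 CPM, the last from batch 2. The K556R groups overlapped because the batch 2 refed libraries reached the fasted levels of batch 1, whereas within each batch every refed library was below every fasted one. Wild-type refed livers had 2.49, 4.06, 4.31, 6.54 and 3.19 CPM, against 9.67, 9.07, 8.22, 8.04 and 6.80 CPM in wild-type fasted livers, without overlap. The log2 change was −1.38 in K556R (SE 0.51, adjusted p = 0.0412) and −1.02 in wild type (SE 0.46, adjusted p = 0.0839). That fit takes 1 batch shift for all groups, whereas the levels of Cidec moved in opposite directions by genotype. From batch 1 to batch 2 the mean rose from 1.35 to 12.0 CPM in K556R refed and 9.75 to 24.4 CPM in K556R fasted livers. It fell from 4.35 to 3.19 CPM in wild-type refed and 8.75 to 6.80 CPM in wild-type fasted livers. For K556R livers, batch 1 alone gave −2.85 (adjusted p = 2.27e-05) and batch 2 alone −1.01 (adjusted p = 0.0699). Without K556R refed 1_b1 and K556R fasted 1_b1 it was −0.90 (adjusted p = 0.189). The interaction of −0.36 (SE 0.69, unadjusted p = 0.611) did not pass, so the changes are not shown to differ between genotypes. The K556R call was lost under 12 of 33 other settings, among them limma and the fit without a batch term. Leaving out K556R refed 1_b1, 2_b1 or 1_b2, or K556R fasted 1_b1, 2_b1, 4_b1 or 1_b2, also ended it. In wild type the change was −1.002 in batch 1 alone (adjusted p = 0.00202) and −1.08 in batch 2 alone (adjusted p = 0.220). It passed in 5 of 33 other settings, limma (adjusted p = 0.0397), only the groups compared, and without refed 4_b1 or fasted 1_b2 being the 4 besides batch 1 alone.

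Cideb (chr14:55754050-55758458, minus strand), whose protein takes part in loading triglyceride onto very low density lipoprotein in hepatocytes, averaged 191 ± 28.4 CPM in K556R refed livers and 176 ± 17.2 CPM in K556R fasted livers (SD, n = 5 each). In wild type it averaged 198 ± 12.4 CPM in refed livers and 181 ± 7.93 CPM in fasted livers. Cideb changed by 0.08 in K556R (2 SE either side, −0.10 to 0.27; adjusted p = 0.512) and 0.13 in wild type (−0.04 to 0.31; adjusted p = 0.237). Of its exon bases, 1136 (76.3%) overlap Nop9 on the opposite strand. The strand setting of the counting is not given, so reads of the pair cannot be told apart, and Nop9 itself was counted at 19.8 ± 1.08 CPM in wild-type refed livers and 18 ± 0.639 CPM in wild-type fasted livers.

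Cidea, on chromosome 18, is known from brown fat and from fatty liver and was near the limit of detection. It had 0 and 0 counts in the K556R refed libraries of batch 1 and 31, 140 and 110 counts in those of batch 2, against 1, 4, 6, 7 and 9 counts in K556R fasted livers. A count of 0 allows up to 3 counts, or 0.0557 and 0.0659 CPM in those libraries. Wild-type refed livers had 3, 11, 3, 30 and 5 counts, against 5, 1, 6, 2 and 4 counts in wild-type fasted livers. In log2, the change was 1.96 in K556R (SE 1.15, adjusted p = 0.191) and 1.66 in wild type (SE 1.19, adjusted p = 0.278), and these fitted values of a gene near 0 depend on the prior count. In K556R it was −5.29 in batch 1 alone (adjusted p = 0.0616), where both refed libraries were at 0, and 3.37 in batch 2 alone (adjusted p = 0.117), so its sign turned between batches. Of the settings run, Cidea passed in K556R without a batch term alone (adjusted p = 0.0175). Because Cidea met the count filter only through refed libraries, its refeeding values are descriptive, and that pass is no support for a rise.

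The lipase gene Pnpla2 (chr7:141455198-141460743, plus strand) was lower after refeeding in both genotypes in every setting. It had 27.9, 35.2, 38.8, 34.7 and 42.6 CPM in K556R refed livers, against 84.7, 99.2, 141, 157 and 113 CPM in K556R fasted livers. Wild-type refed livers had 46.4, 35.0, 32.3, 30.2 and 36.9 CPM, against 108, 127, 123, 133 and 99.7 CPM in wild-type fasted livers. Refed and fasted libraries were separate in both genotypes by a wide margin. The log2 change was −1.74 in K556R (SE 0.17, 0.299-fold, adjusted p = 2.97e-07) and −1.71 in wild type (SE 0.16, 0.306-fold, adjusted p = 1.11e-07). Over all 33 other settings it ranged between −1.93 and −1.54 in K556R and between −1.82 and −1.43 in wild type, and it passed in each. The interaction was −0.03 (SE 0.23), between −0.48 and 0.42 with 2 SE on either side.

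G0s2 (chr1:193272161-193273217, minus strand), the inhibitor of that lipase, was lower after refeeding in K556R. Its levels were 32.1, 90.7, 94.7, 104 and 87.5 CPM in K556R refed livers, against 67.4, 109, 123, 264 and 269 CPM in K556R fasted livers. In wild type they were 46.1, 97.7, 74.8, 133 and 85.0 CPM in refed livers, against 126, 138, 189, 191 and 175 CPM in fasted livers. Refed and fasted libraries overlapped in both genotypes, in K556R because fasted 1_b1 was as low as 67.4 CPM. The log2 change of −1.20 in K556R passed (SE 0.38, adjusted p = 0.0176), and that of −0.90 in wild type did not (SE 0.36, adjusted p = 0.0511), though 12 of 33 other settings put it past the threshold. The interaction, −0.30 (SE 0.52, unadjusted p = 0.566), did not pass, so the changes are not shown to differ between genotypes. In wild type the change was −0.87 in batch 1 alone (adjusted p = 0.153) and −1.04 in batch 2 alone (adjusted p = 0.00260). In K556R it was −1.49 in batch 2 alone (adjusted p = 2.62e-05). That call was lost in batch 1 alone (log2 change −1.20, adjusted p = 0.146), without refed 1_b1 (−0.96, adjusted p = 0.0604), by limma (−0.90, adjusted p = 0.0545) and without fasted 1_b2 (−0.99, adjusted p = 0.0985). G0s2 lies within the span of Lamb3 on the opposite strand but shares no exon base with it.

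Mgll (chr6:88724412-88828360, plus strand), the lipase of the last step, averaged 325 ± 86.3 CPM in K556R refed livers and 362 ± 50.6 CPM in K556R fasted livers. Wild-type livers averaged 339.8 ± 25.0 CPM after refeeding and 317 ± 25.5 CPM when fasted (SD, n = 5 each). Its log2 change was −0.28 in K556R (SE 0.14, adjusted p = 0.119) and 0.10 in wild type (SE 0.13, adjusted p = 0.568). In batch 1 alone the K556R value was −0.51 and passed (adjusted p = 0.0122), and in batch 2 alone it was −0.22 (adjusted p = 0.209). The K556R value also passed with only the groups compared and without wild type fasted 1_b2 (−0.33 in the latter, adjusted p = 0.0404).

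Cd36 (chr5:17781690-17888801, minus strand), which encodes a fatty acid transporter and scavenger receptor, was called higher after refeeding in wild type, the 1 such call among the members. In K556R it had 32, 21.4, 62.4, 77.7 and 51.4 CPM in refed livers, against 33.8, 54.2, 22.2, 22.1 and 61.1 CPM in fasted livers, and the groups covered almost the same range. In wild type it had 40.6, 53.7, 44.8, 58.0 and 47.0 CPM in refed livers, against 41.1, 26.7, 15.6, 15.5 and 42.0 CPM in fasted livers, where 2 of the fasted libraries reached into the refed range. For Cd36 the log2 change was −0.03 in K556R (SE 0.33, adjusted p = 0.954) and 0.86 in wild type (SE 0.31, adjusted p = 0.0316). The interaction of −0.89 (SE 0.46) did not pass (unadjusted p = 0.0684, adjusted p = 1), so the changes are not shown to differ between genotypes. The wild-type call was lost under 9 of 33 other settings, among them batch 2 alone (0.17, adjusted p = 0.773), and batch 1 alone gave 0.99 (adjusted p = 0.0402). Leaving out wild type fasted 3_b1 or 4_b1, the libraries with the lowest levels, or any of refed 2_b1, 3_b1 and 4_b1 also ended the call, as did leaving out fasted 1_b2. Macrophages and endothelial cells also express Cd36; the macrophage list summed to 60.5 to 99.9 CPM in wild-type refed and 41.2 to 237 CPM in wild-type fasted livers, and the endothelial list to 106 to 125 CPM and 87.1 to 148 CPM. Their part in the result was not tested.

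Ratios within pairs of members were compared next, as log2 of the ratio of CPM in each library, with the difference between groups adjusted for batch. The ratio of Plin5 to Plin2 was −2.70, −2.67, −3.22, −3.31 and −3.46 in K556R refed livers, against −1.56, −2.25, −1.25, −1.48 and −2.04 in K556R fasted livers. The difference was −1.14 in K556R (two-sided exact permutation test, batches kept apart, p = 0.0167, adjusted p = 0.0667) and −0.99 in wild type (p = 0.0286, adjusted p = 0.0857, exact). All 5 K556R refed libraries lay below all 5 fasted ones, while wild type fasted 3_b1 and 1_b2 (−2.95 and −2.93) lay within the wild-type refed range. The ratio of Cidec to Cideb differed by −2.23 between refed and fasted K556R livers (exact p = 0.0167, adjusted p = 0.0667) and by −1.21 in wild type (exact p = 0.0143, adjusted p = 0.0667). The ratio of G0s2 to Pnpla2, inhibitor to lipase, differed by 0.46 between refed and fasted K556R livers (exact p = 0.217) and by 0.74 in wild type (exact p = 0.1), and neither passed. Between genotypes the 3 ratios differed by −0.28 to 0.53, with exact p-values of 0.114 to 0.750. The smallest p that these permutations allow is 0.0143 or 0.0167, and over the 12 differences no adjusted p was below 0.0667. After refeeding, Plin5 to Plin2 in K556R and Cidec to Cideb in both genotypes were at that smallest p. A single difference could not pass this adjustment whatever its size, so not passing does not show that a ratio was unchanged.

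**Figure D3:**
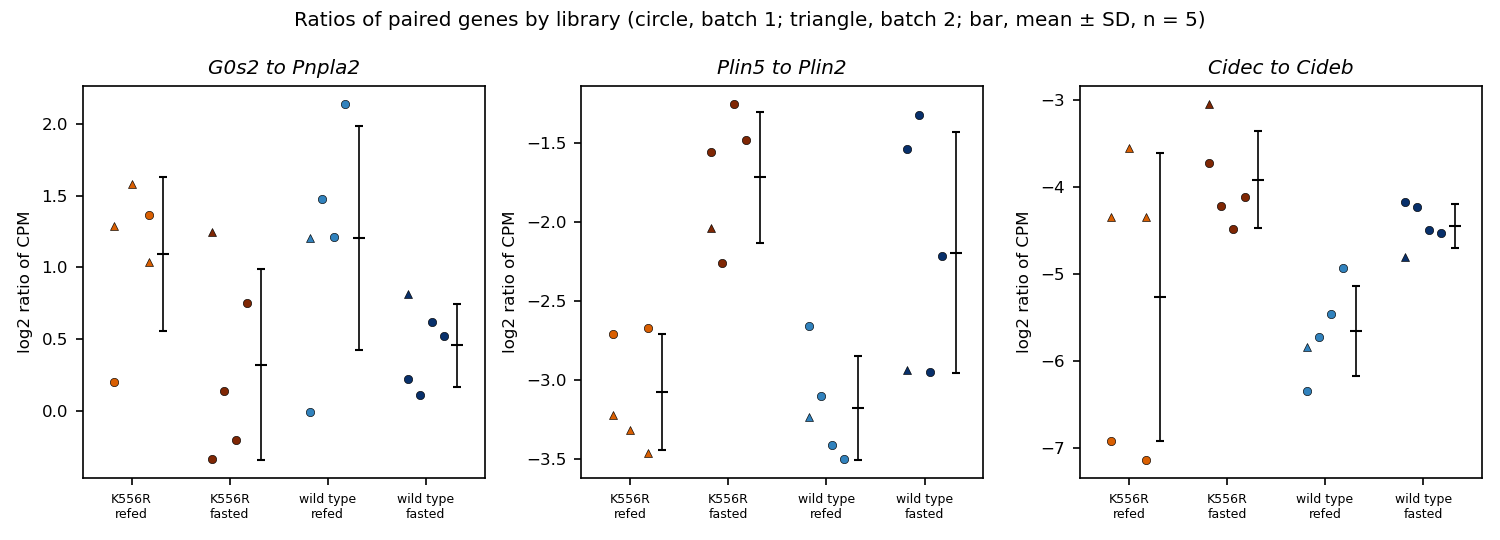
Log2 ratio of CPM (y axis) for 3 pairs of genes in each library of the 4 groups (x axis), with circles for batch 1, triangles for batch 2 and bars for the mean ± SD of 5 libraries. For Plin5 to Plin2 the K556R refed libraries (−3.46 to −2.67) lie below the K556R fasted ones (−2.25 to −1.25), and the 2 batch 1 libraries of K556R refed livers lie at −6.92 and −7.14 for Cidec to Cideb, below the batch 2 libraries (−4.35 to −3.54).

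No genotype difference passed the test for any of the 10 genes. In refed livers, in fasted livers, averaged over feeding and in the interaction, 0 of 10 passed in edgeR, and DESeq2 and limma also gave 0. At an unadjusted p under 0.05 there was 1 member in fasted livers and 1 averaged over feeding, Plin5 each time, and 0 in refed livers and in the interaction. Over all 13894 genes 0% were called in refed livers and in fasted livers, 0.0288% averaged over feeding and 0% in the interaction; an unadjusted p under 0.05 was met by 4.99%, 8.18%, 9.27% and 3.98%. DESeq2 called 6 genes in refed livers, 55 in fasted livers, 40 averaged over feeding and 1 in the interaction, and limma 0, 2, 4 and 0. No member separated K556R from wild-type libraries in either feeding state, as 0.619% of all genes did in refed livers and 0.914% in fasted livers.

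**Figure D4:**
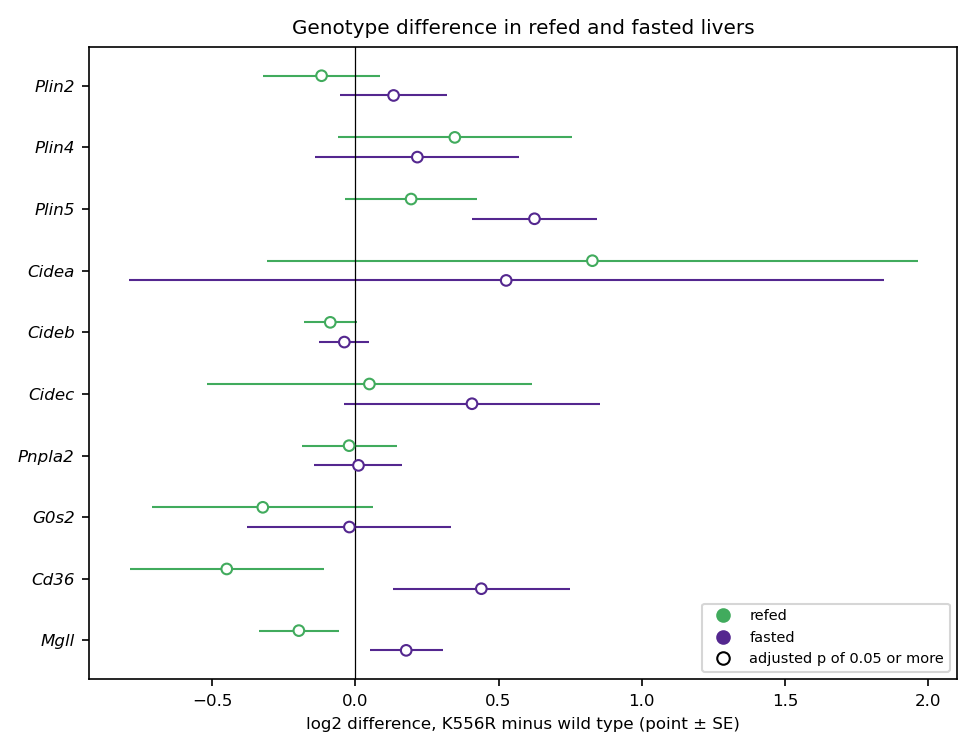
Log2 difference between genotypes (K556R minus wild type, x axis; point ± SE) for each gene in refed livers (green) and fasted livers (purple); all points are open because no adjusted p was under 0.05. Plin5 in fasted livers lies farthest from 0 in units of its SE, at 0.63.

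Plin5 came nearest. In fasted livers it averaged 187 ± 43.2 CPM in K556R and 123 ± 43.6 CPM in wild type (SD, n = 5 each), a log2 difference of 0.63 (SE 0.22, 1.54-fold, edgeR unadjusted p = 0.0104, adjusted p = 0.433). Batch 1 alone gave 0.44 (adjusted p = 0.966). Batch 2 alone, with 1 library in each fasted group and the spread taken from the 3 K556R refed libraries, gave 1.54 (adjusted p = 0.00169). Without wild type fasted 1_b2 it was 0.44 (adjusted p = 0.654). In refed livers Plin5 averaged 45.0 ± 10.7 CPM in K556R and 42.9 ± 3.81 CPM in wild type, a log2 difference of 0.19 (SE 0.23, adjusted p = 0.966). The interaction for Plin5 was −0.43 (SE 0.31, unadjusted p = 0.186).

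For the other members the precision sets what could have been seen. With 2 SE on either side, the Pnpla2 difference lay between −0.35 and 0.31 in refed livers and between −0.30 and 0.32 in fasted livers. For Plin2 the bounds were −0.52 to 0.29 in refed and −0.24 to 0.51 in fasted livers, and for Cideb −0.27 to 0.10 and −0.21 to 0.14. Mgll had bounds of −0.48 to 0.08 in refed and −0.08 to 0.43 in fasted livers. Wider bounds held for Plin4 (−0.47 to 1.16 refed, −0.50 to 0.93 fasted), G0s2 (−1.09 to 0.45 refed, −0.73 to 0.69 fasted), Cd36 (−1.13 to 0.23 refed, −0.18 to 1.06 fasted) and Cidec (−1.08 to 1.18 refed, −0.49 to 1.30 fasted). Cidea could not be compared usefully, with bounds of −1.44 to 3.10 in refed and −2.11 to 3.16 in fasted livers.

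The K556R refed group was split by batch for several members. The 3 libraries of batch 2 lay above the 2 of batch 1 without overlap for Plin2, Cidea, Cidec, Cd36 and Mgll, 5 of 10, and below them for 0; of all tested genes 12% were separately higher and 10.7% separately lower. The 2 of batch 1 include 1_b1, which stood apart over all genes, so batch and that library are partly mixed. In wild-type refed livers none of these genes was higher in batch 2, where that group has 1 library. Batch 1 mean and batch 2 level were 393 and 380 CPM for Plin2, 343 and 329 CPM for Mgll and 49.3 and 47.0 CPM for Cd36. They were 4.35 and 3.19 CPM for Cidec and 0.278 and 0.108 CPM for Cidea. In K556R refed livers Cidec had 9.85, 15.8 and 10.4 CPM in batch 2 and 1.19 and 1.52 CPM in batch 1. Between refed K556R and refed wild-type livers Cidec differed by −1.70 in batch 1 alone and by 1.91 in batch 2 alone, of opposite sign (adjusted p = 0.15 and 0.614), and by 0.05 over both batches. Summed over the adipocyte list of 7 markers, the K556R refed libraries held 1.47, 2.44 and 0.525 CPM in batch 2 and 0.0557 and 0.285 CPM in batch 1. The sum ranged between 0.0557 and 2.44 CPM in K556R refed livers, 0.0990 and 1.05 CPM in K556R fasted livers, 0.308 and 0.948 CPM in wild-type refed livers and 0.177 and 0.584 CPM in wild-type fasted livers. Of its genes, Cfd had 1.21, 2.25 and 0.372 CPM in the batch 2 and 0 and 0.242 CPM in the batch 1 libraries of K556R refed livers. In K556R fasted 1_b2, the fasted library with the highest Cidec (24.4 CPM), the sum was 1.05 CPM and Cfd 0.796 CPM, each the highest of its group. Of the other markers, Lep was at 0 in every library, and Adipoq, Retn, Adig, Plin1 and Ucp1 were under 1 CPM in every library. In K556R refed livers Retn had 0.237, 0.134 and 0.131 CPM in batch 2 and 0 and 0 CPM in batch 1. Adipoq had 0, 0.0191 and 0 CPM in batch 2 and 0.0186 and 0.0220 CPM in batch 1. Adig had 0, 0.0382 and 0.0219 CPM in batch 2 and 0.0371 and 0.0220 CPM in batch 1. Plin1 was at 0 in each of these libraries, and Ucp1 in all but 1_b2 (0.0237 CPM). The part of adipocyte RNA in these results was not tested.

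The calls in 3 further lists are to be read against all tested genes, of which 20.3% were lower and 19.6% higher in K556R, and 24.2% lower and 20.9% higher in wild type. No list is singled out by these counts. Of 15 further droplet surface genes tested (Plin1 was not), 4 were lower and 1 higher in K556R, and 5 lower and 1 higher in wild type. Fitm2, whose protein helps droplets bud from the endoplasmic reticulum, averaged 29.4 ± 1.15 CPM in wild-type refed livers and 67.3 ± 8.31 CPM in wild-type fasted livers; its log2 change was −1.14 in K556R and −1.20 in wild type (adjusted p = 7.46e-07 and 1.26e-07). Plin3, a perilipin that moves between cytosol and droplet, was the 1 higher gene, with 0.33 in K556R and 0.41 in wild type (adjusted p = 0.00658 and 7.47e-04), opposite in sign to Plin2, Plin4 and Plin5. Hsd17b11 (−0.33 and −0.44) and Mettl7a1 (−0.24 and −0.35), both encoding droplet-associated proteins, were lower in K556R and in wild type. The other calls, named whatever their rank, were Spg20 (−0.57 in K556R and −0.38 in wild type) and, in wild type, Faf2 (−0.12).

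Of 11 further lipolysis genes tested (Pnpla1 was not), 3 were higher and 2 lower in K556R, and 4 higher and 2 lower in wild type. Pnpla3, a relative of Pnpla2 that is known to be induced by feeding, averaged 65.5 ± 46.5 CPM in K556R refed livers and 1.48 ± 0.494 CPM in K556R fasted livers. In wild type Pnpla3 averaged 67.4 ± 49.2 CPM in refed livers and 0.905 ± 0.177 CPM in fasted livers. Its log2 change was 4.84 in K556R (SE 0.68, adjusted p = 3.30e-05) and 6.22 in wild type (SE 0.69, adjusted p = 1.99e-06), the reverse of Pnpla2. Pnpla5, another relative, was higher too, with 4.76 in K556R and 6.03 in wild type (adjusted p = 5.06e-04 and 2.41e-05), at 2.40 ± 2.01 CPM in wild-type refed livers and 0.0418 ± 0.0502 CPM in wild-type fasted livers. Some fasted libraries held 0 counts of Pnpla5, so its fitted changes depend on the prior count and are no bound. Abhd5, the coactivator of adipose triglyceride lipase, was higher (0.43 and 0.37; adjusted p = 0.00181 and 0.00305), and the phospholipase gene Ddhd2 lower (−1.16 and −0.95; adjusted p = 3.68e-06 and 1.09e-05). The remaining calls were Abhd6, a monoglyceride lipase gene (−0.58 in K556R and −0.47 in wild type), and, in wild type, the lysosomal lipase gene Lipa (0.30).

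Of 14 tested genes for the uptake and activation of fatty acids (Slc27a6 and Acsl6 were not tested), 3 were higher and 4 lower in K556R, and 2 higher and 3 lower in wild type. Acsl3, an acyl-CoA synthetase found on growing droplets, averaged 61.3 ± 9.16 CPM in K556R refed livers and 23.5 ± 2.67 CPM in K556R fasted livers, a log2 change of 1.37 (adjusted p = 6.10e-08), with 1.43 in wild type (adjusted p = 8.78e-09). Acsl5 was higher by 0.31 in K556R and 0.62 in wild type (adjusted p = 0.0261 and 4.82e-05). The fatty acid transporter genes Slc27a2 (−0.84 and −0.87) and Slc27a1 (−1.54 and −1.24) were lower in K556R and in wild type. Acsl1 was lower too (−0.51 and −0.43), and in K556R Acsl4 was higher (0.57) and Slc27a5 lower (−0.26).

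**Figure D5:**
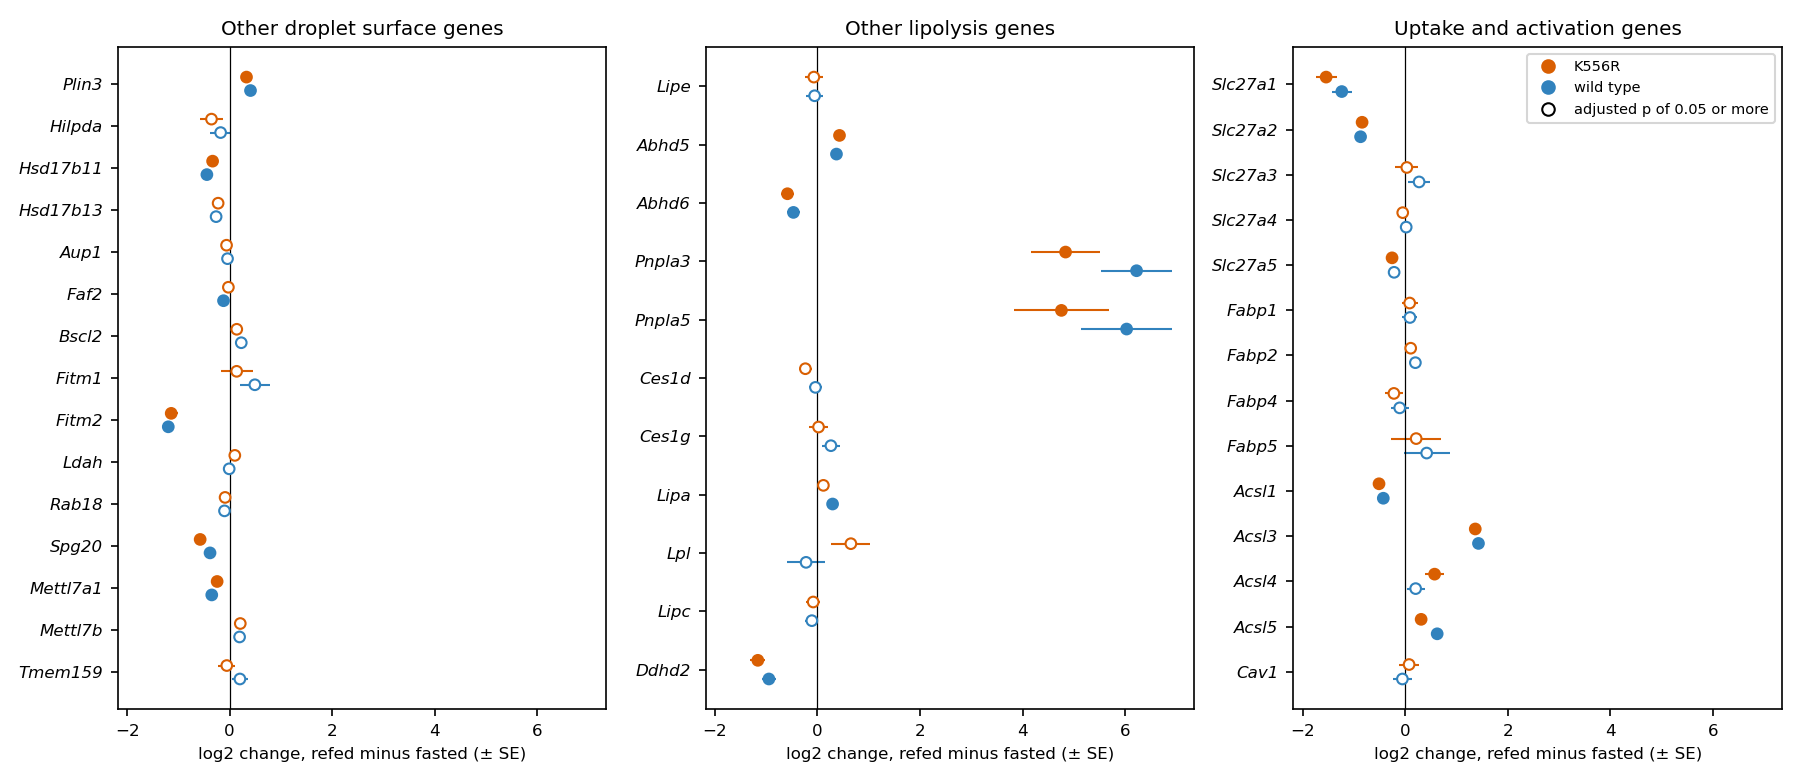
Log2 change with refeeding (refed minus fasted, x axis; point ± SE) for the other droplet surface, lipolysis, and uptake and activation genes in K556R livers (orange) and wild-type livers (blue), with filled points for an adjusted p under 0.05. Pnpla3 and Pnpla5 lie far to the right of all other genes shown, at 4.84 and 4.76 in K556R and 6.22 and 6.03 in wild type.

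Genes with the most similar profiles were found by the mean absolute difference of centred log2 CPM over the 20 libraries, among 9400 genes, for the 7 members that passed in either refeeding comparison. For Pnpla2 they were Klhl21 (0.141) and Foxo1 (0.164), which encodes a transcription factor of the fasting response. For Plin2 they were Dnajb1 (0.152) and Crat (0.154), the gene of carnitine acetyltransferase. Plin4 lay nearest to Lpin1 (0.435), which encodes a phosphatidate phosphatase, and Angptl4 (0.480), the gene of a lipoprotein lipase inhibitor. Plin5 had St3gal5 (0.257) and Slc25a22 (0.262) as its nearest profiles. For Cidec they were Pex11a (0.524), a peroxisome gene, and Fgf21 (0.568), a hormone gene induced by fasting. G0s2 was nearest to Ppp1r10 (0.270) and to Lamb3 (0.320), the gene in whose span it lies. Cd36 was nearest to Lgals1 (0.256) and Fam126a (0.296). Among the members themselves Cideb and Mgll were closest (0.163), followed by Plin2 and Mgll (0.279) and by Plin5 and Pnpla2 (0.282). Plin4 and Plin5, neighbours on the chromosome, differed by 0.854, the smallest distance of Plin4 to any other member. The measure also grows with the size of a change, and the SD of the log2 profile was 1.85 for Plin4 and 0.994 for Plin5. Cideb and Mgll passed in neither refeeding comparison, so a small distance does not by itself mean a shared response. All these libraries share the contrast between refed and fasted livers, so the distances describe likeness over these samples only.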

How the data were processed

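The authors deposited raw read counts per gene for 20 liver libraries, with 29915 gene symbols. Per the submitters' processing notes the build was mm10, and the tools named are edgeR, DESeq2, TopHat, HTSeq, STAR and STAR-Fusion, with no roles; the counting tool, annotation and strand setting used are therefore unknown here. Per the labels' protocols, poly-T beads selected messenger RNA, and libraries could be directional or not.

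Counts were fitted with edgeR 4.0.16 (R 4.3.3; quasi-likelihood F test, robust, TMM, filterByExpr with a minimum count of 10 and a minimum total of 15) for group and batch over all 20 libraries. Benjamini-Hochberg adjustment ran over 13894 genes, with a threshold of 0.05. CPM use TMM-adjusted library sizes. Total counts of 33746054 to 50647297 set the counting precision. No pair of replicates agreed within sampling noise (lowest chi-square per degree of freedom 11.7). Other settings tried were DESeq2 1.42.0, limma 3.58.1 with quality weights, upper-quartile and RLE scaling, 2 other filters, batch and replicate terms, and libraries left out. The fit was run on simulated counts with known changes, the same spread for every gene and no batch effect. The batches and the libraries that stood apart were not simulated. Positions are from GENCODE M21 (GRCm38); sequences are from RefSeq (GRCm38.p6). Hilpda, Ldah, Adgre1, Nop9 and Hdgfl2 were found under older symbols.

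The members, the lists and the tests were chosen with earlier results of these data known. Named genes are all 10 members and up to 4 genes of each other list with the lowest p in the wild-type refeeding comparison. Further genes of those lists called in either genotype are also named, whatever their rank. So are the 2 nearest profiles of each called member (mean log2 CPM of at least 1), the adipocyte markers and some genes overlapping a member. Prox1, Pck1 and Srebf1 are named as checks. Library names combine the labels' repeat and batch.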

Additional observations from a re-analysis of the deposited data

Results flagged for a closer look

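In 3 of the 40 sets of 5 libraries (10 genes in 4 groups) 1 library stood far from the others, judged by its gap to the nearest library over the whole range, with 0.71 as the critical value. Chance alone flags about 1 in 20 such sets. Plin2 had 211 CPM in K556R refed 1_b1, with the nearest library of the group at 389 CPM (gap ratio 0.746). G0s2 had 32.1 CPM in K556R refed 1_b1, with the nearest at 87.5 CPM (gap ratio 0.774). Cidec had 24.4 CPM in K556R fasted 1_b2, with the nearest at 11.6 CPM (gap ratio 0.762). K556R refed 1_b1 is 1 of the 2 libraries that stood apart over all genes, and K556R fasted 1_b2 is the only batch 2 library of its group and had the highest level of its group in 7 of the 10 genes.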

How the results depend on the processing

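Over 33 other settings Plin5 and Pnpla2 were called lower after refeeding in both genotypes each time, and Plin4 in all but batch 2 alone, where 3 groups have 1 library. The count of the 10 genes called in wild type was 5; it was 3 in batch 2 alone and 3 to 6 with 1 library left out, losing Plin2 and Cd36 without fasted 3_b1, fasted 4_b1, refed 2_b1 or refed 3_b1. In K556R it was 6, with 4 in batch 2 alone and by limma, and 4 to 7 with 1 library left out. Genotype counts of 0 became 2 in fasted livers, 2 averaged over feeding and 1 in the interaction in batch 2 alone (Plin2 and Plin5, then Plin5), where the spread comes from 3 libraries of 1 group; the cause was not tested. No member's call changed sign. Among refeeding values that were not called, that of Cidea in K556R turned sign in batch 1 alone, and that of Cd36 in K556R kept its sign in 25 of 33 settings. The refeeding values of Cideb in both genotypes and of Mgll in wild type kept theirs in 32 of 33. Genotype values, none of them called, turned too, such as that of Cd36 averaged over feeding (sign kept in 18 of 32 settings). Repeat numbers did not pair libraries (same-number correlations of deviations −0.37 to 0.63, median −0.06, 5 of 24 over 0.1; 7 of 20 libraries matched their own number best); with a replicate block 6 members were called in K556R, 6 in wild type and 0 between genotypes, and 4511 and 5929 of all genes after refeeding. For the ratios, batch 1 alone gave 0.48 for Plin5 to Plin2 between genotypes in refed livers (0.19 to 0.48 with 1 library left out), −2.90 for Cidec to Cideb after refeeding in K556R (−2.90 to −1.94), 0.22 between genotypes in fasted livers (0.22 to 0.65) and −1.42 in refed livers (−1.42 to 0.17). G0s2 to Pnpla2 after refeeding in K556R was 0.083 to 0.69 with 1 library left out, lowest without refed 2_b1. All-gene counts after refeeding, 5543 in K556R and 6263 in wild type, were 2702 and 1144 in batch 2 alone. Between genotypes, fasted livers had 0 calls (DESeq2 55, limma 2, batch 2 alone 220), refed livers 0 (DESeq2 6, batch 2 alone 12, only the groups compared 3), the average 4 (DESeq2 40, batch 2 alone 156, batch 1 alone 0, replicate block 0, no batch term 2, up to 13 with 1 library left out) and the interaction 0 (DESeq2 1, batch 2 alone 21). Only the groups compared could not be fitted for the average and the interaction. Depth limits Cidea alone among the members.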
